A study of Homo sapiens with 2 samples.

Results

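The genes of the mitochondrial ribosome were compared between 2 subclones of HMC1, an established human cell line derived from mast cell leukaemia. The nuclear genes in question encode the proteins of the ribosome that works inside mitochondria. A gene was taken as a member when a probe set carried only its symbol in the platform annotation and that symbol was MRPL or MRPS with a number; pseudogenes were left out. This gave 75 genes of the 19775 with a probe set of their own, 48 named for the large subunit (MRPL) and 27 for the small subunit (MRPS). RNA of cells sorted with an antibody to CD2 was hybridised to Affymetrix U133 Plus 2.0 arrays, 1 array for the subclone with CD2 on its surface (CD2-positive) and 1 for the subclone without it (CD2-negative). Both subclones came from the same line, neither carried a further treatment in the labels, and whether each grew from a single cell is not stated. With 1 array per group no difference has a replicate check and no p-value is given.

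Mitochondria keep a small genome of their own, and its protein-coding genes specify core subunits of the respiratory chain and of ATP synthase. A dedicated ribosome translates them. Its RNAs are made inside the organelle, while all of its proteins are encoded in the nucleus, made in the cytosol and imported. The small subunit reads the messenger RNA, and the large subunit joins the amino acids. Many of the proteins have a counterpart in the bacterial ribosome, and others are found only in mitochondria.

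CD2 itself read 219 on the CD2-positive and 13 on the CD2-negative array, which follows the labels. Both arrays reported 54675 probe sets with a median intensity of 4. The 8 measured mast cell markers had summed intensities of 9785 (CD2-positive) and 6302 (CD2-negative). Of them 7 reached an intensity of 64 on an array, and FCER1A, the IgE receptor alpha chain gene, did not, at 27 and 8. None of 6 T and NK cell, 4 B cell, 5 monocyte or 3 erythroid markers reached 64, and their values lay between 2 and 28. These marker lists were short. Outside them the granzyme gene GZMM read 103 and 17, and the globin gene HBD 20 and 76. Probe sets for Bacillus transcripts read 1 to 4. The 18 hybridisation controls, transcripts of bacteria and a phage added in equal amounts by design, had a median log2 difference of -0.18 between the arrays. In bulk RNA, fewer cells expressing a gene and less of its RNA per cell cannot be told apart.

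The promoters of the member genes were searched for motifs. The 67 members with an entry in the RefSeq promoter table (build GRCh38.p14) were read over 250 bases before and 50 bases after the start of the gene, on both strands, against 3 short motifs known from promoters of nuclear genes for mitochondrial proteins. These were the core of the NRF1 site, GCATGCGC, the ETS site bound by the factor GABP, CCGGAAG, and the YY1 site, AAGATGGC. A promoter could hold more than 1 of them and was counted under each. At least 1 motif was present in 40 of the 67 member promoters (59.7%), against 31.8% of the promoters of 3014 other genes that reached 64 on an array and 15.6% of all 27305 promoters in the table. The YY1 letters were in 28.4% of member promoters and 6.67% of those of the other genes that reached 64. ETS letters were in 41.8% and 22.9%, and NRF1 letters in 8.96% and 5.87%. The share with any motif was 58.5% in the large and 61.5% in the small subunit. Median GC content was 60.3% in member promoters and 64.7% in those of the other genes. The 6 promoters below are shown because they hold a match in the 150 bases before the start and belong to the 4 members with the most negative and the 2 with the most positive difference among such genes that reached 64. The 2 most positive are MRPS18B (0.077) and MRPL30, whose difference is itself slightly negative (-0.044). Capitals mark the motif letters, and the gene starts directly after the last base.

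MRPS23 (chr17:57850045-57850194, minus strand): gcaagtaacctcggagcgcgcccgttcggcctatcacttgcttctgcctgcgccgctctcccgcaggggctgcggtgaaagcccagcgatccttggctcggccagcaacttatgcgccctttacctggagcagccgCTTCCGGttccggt
MRPL47 (chr3:179604639-179604788, minus strand): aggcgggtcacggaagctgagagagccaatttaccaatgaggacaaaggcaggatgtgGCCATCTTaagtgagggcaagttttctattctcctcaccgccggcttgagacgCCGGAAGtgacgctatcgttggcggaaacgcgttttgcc
MRPS18C (chr4:83455908-83456057, plus strand): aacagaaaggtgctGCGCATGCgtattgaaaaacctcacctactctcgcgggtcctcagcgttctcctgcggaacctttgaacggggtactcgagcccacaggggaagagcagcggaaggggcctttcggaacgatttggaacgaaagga
MRPL22 (chr5:154940923-154941072, plus strand): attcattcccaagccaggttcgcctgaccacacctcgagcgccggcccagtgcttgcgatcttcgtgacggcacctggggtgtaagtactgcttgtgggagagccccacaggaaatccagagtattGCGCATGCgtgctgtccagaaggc
MRPL30 (chr2:99181034-99181183, plus strand): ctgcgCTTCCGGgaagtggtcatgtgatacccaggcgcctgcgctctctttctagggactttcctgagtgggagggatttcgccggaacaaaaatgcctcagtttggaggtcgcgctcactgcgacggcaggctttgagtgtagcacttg
MRPS18B (chr6:30617690-30617839, plus strand): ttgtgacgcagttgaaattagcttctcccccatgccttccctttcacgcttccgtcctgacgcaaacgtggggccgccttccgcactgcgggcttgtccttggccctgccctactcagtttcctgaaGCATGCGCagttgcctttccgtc

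In MRPS23 the ETS letters lie on the opposite strand 14 bases before the start. MRPL47 holds both a YY1 match on the opposite strand and an ETS match on the gene's own strand, 92 and 39 bases before the start. The NRF1 core begins 24 bases before the start in MRPL22 and 23 bases before it in MRPS18B, 2 genes whose differences have opposite signs. Among the members with a mean log2 level of at least 5, the median log2 difference was -0.14 over 24 promoters with the ETS letters and -0.089 over 33 without them. For YY1 it was -0.071 over 18 with and -0.18 over 39 without the letters. Only 6 of these promoters held the NRF1 core, with a median of -0.23 and a range from -0.41 to 0.077, against -0.10 over the 51 without it. The ranges overlapped for all 3 motifs.

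Most mitochondrial ribosomal protein genes read slightly lower in the CD2-positive subclone. Of the 75 members, 54 were lower, 18 higher and 3 equal, with a median log2 difference (CD2-positive minus CD2-negative) of -0.12 and a range from -1.22 to 0.51. Of all 19775 genes, also taken without a floor, 6666 (33.7%) were lower, 5902 higher and 7207 equal, with a median of 0. The deposited intensities were whole numbers, and those of the members ran from 9 to 239 on the CD2-positive and from 12 to 280 on the CD2-negative array. On at least 1 array 38 members reached an intensity of 64 (log2 of 6), the floor used for comparing genes. Of these, 31 were lower and 7 higher, or 81.6% lower, where 55.7% of the 3564 genes above the floor were lower. Their median was -0.22, against -0.045 over all 3564 genes. None of the 38 was at least 1.5-fold higher or lower; among all genes above the floor 4.29% were at least 1.5-fold higher and 3.82% at least 1.5-fold lower. The differences of single members above the floor were thus small, and most had the same sign.

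The floor lets a gene pass on its higher array alone. It was reached only on the CD2-negative array by 7 of the 38 members and only on the CD2-positive array by 1. Of the 30 that reached it on both arrays 24 were lower, with a median of -0.20. Of all 3022 genes that reached it on both arrays 55.2% were lower, with a median of -0.037. A floor on the mean log2 level of both arrays at 5, which favours neither array and was chosen after the values were seen, kept 64 members. Of these 47 were lower, 16 higher and 1 equal, with a median of -0.10; of all 5634 genes past that floor 53.5% were lower. At least 1.25-fold lower were 16 of the 64 members, against 15.3% of all genes, and at least 1.25-fold higher was 1 member, against 11.8% of all genes. The 1.5-fold rule was passed by 1 of the 64, MRPL39, which was lower, against 3.48% of all genes. The spread between probe sets of 1 gene within these arrays, as the standard deviation for 1 probe set over 937 genes, was 0.13 on the log2 scale. It covers probe behaviour and not cultures or hybridisation, and many single members lie within it. Only probe sets that reached 64 on an array entered it, and 1 member was among the 937 genes. The spread of dimmer probe sets was not taken.

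**Figure D1:**
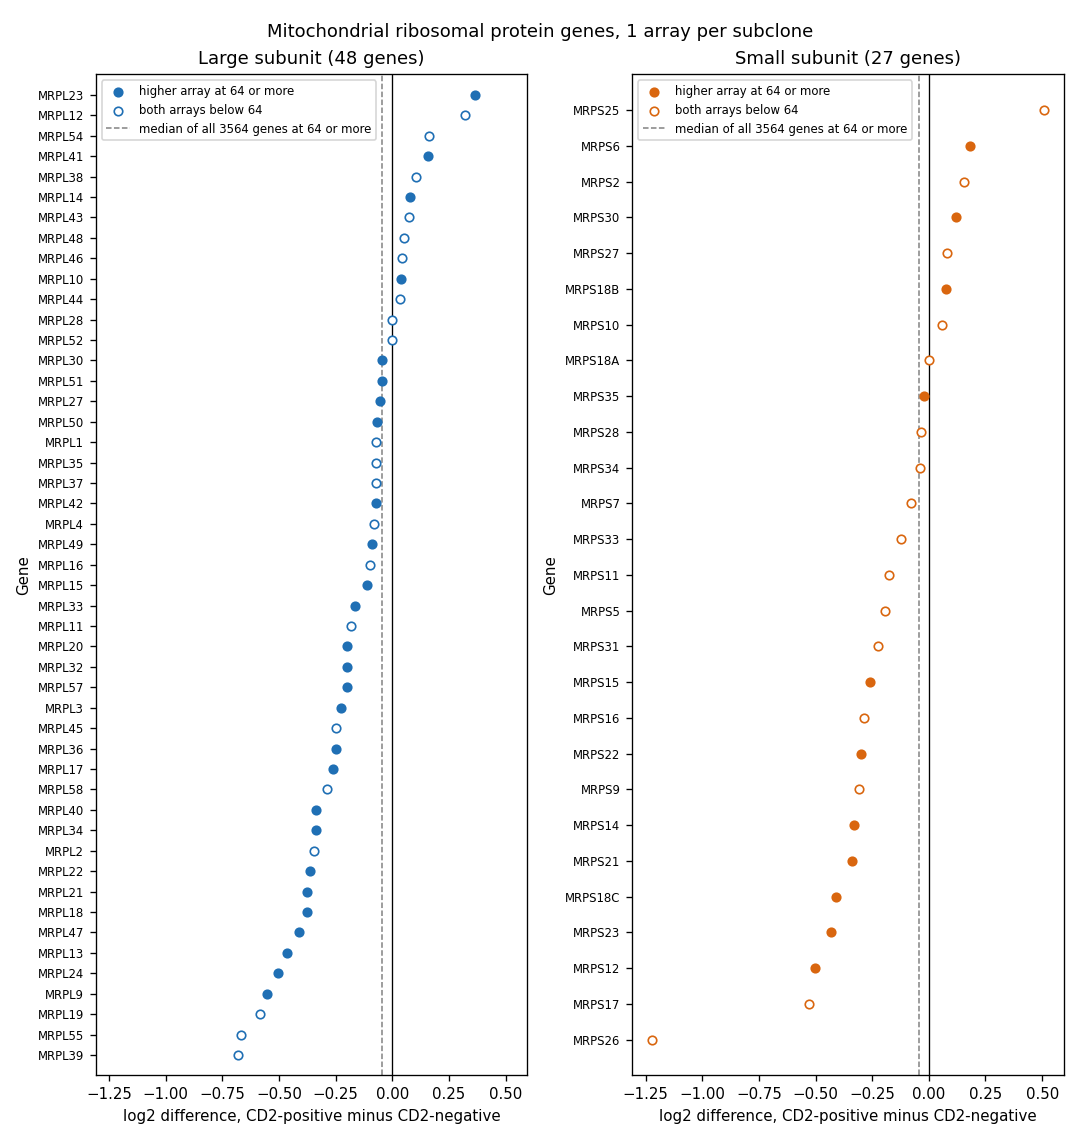
Log2 difference (horizontal axis, CD2-positive minus CD2-negative) of each of the 75 member genes (vertical axis), with the large subunit on the left and the small subunit on the right. Filled points reached an intensity of 64 on at least 1 array, open points did not, and the dashed line is the median of -0.045 over 3564 genes; 54 points lie left of 0.

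The distance of the members from 0 depended on the scaling. Centred on the hybridisation controls, the median of the 38 members was -0.033 and 22 of 38 were lower, while the median of all genes above the floor moved from -0.045 to 0.14 and 30.8% of them were lower. This centring adds the same amount to every gene, so the gap between the members and all genes is the same by construction. When the median over every probe set above the floor was set to 0 instead, the members had a median of -0.18 and 30 of 38 were lower. Of all genes above the floor 51.8% were then lower, with a median of -0.013.

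The 2 subunits were set beside each other. In the large subunit 23 of 27 members above the floor were lower (median -0.20, mean -0.19, range -0.55 to 0.36). In the small subunit 8 of 11 were lower (median -0.30, mean -0.20, range -0.50 to 0.18). The medians differed by -0.10 (small minus large) and the means by -0.013, and the ranges overlapped. This difference was not tested. Over all 75 members the medians were -0.10 in the large and -0.18 in the small subunit, with 35 of 48 and 19 of 27 members lower. The sign of the difference in medians was not stable. It was 0.31 with only probe sets of plain identifiers (5 small-subunit members left), 0.23 with the mean of all probe sets (5 left) and 0.023 without members on chromosomes 1 and 20 (8 left).

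**Figure D2:**
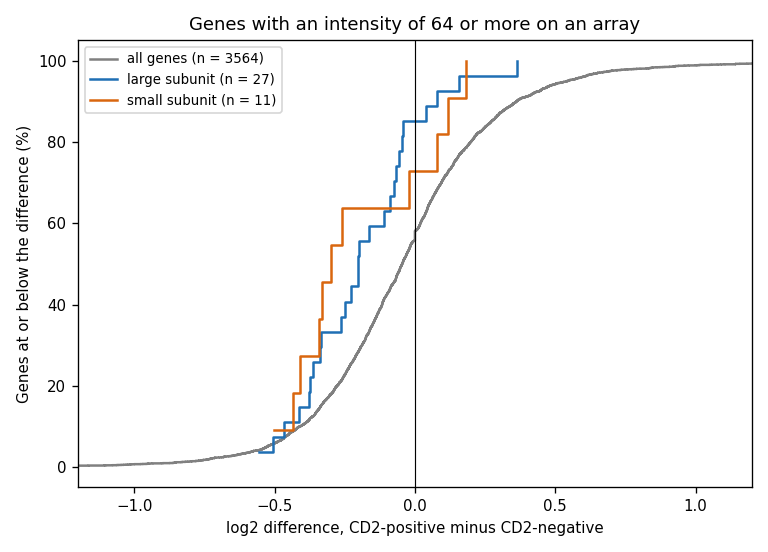
Share of genes (vertical axis, %) at or below each log2 difference (horizontal axis, CD2-positive minus CD2-negative) among genes that reached an intensity of 64 on an array, for all 3564 genes, 27 large-subunit and 11 small-subunit genes; the horizontal axis is cut at -1.2 and 1.2. Both member curves lie left of the curve of all genes over most of its middle part and cross each other.

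Among large-subunit genes above the floor the most negative was MRPL9, whose product has a counterpart in the bacterial large subunit. It read 109 on the CD2-positive and 160 on the CD2-negative array, 1.47-fold lower, and its 2 probe sets with a mean log2 of at least 5 gave -0.55 and -0.60. MRPL24, likewise with a bacterial counterpart, read 62 and 88 (1.42-fold lower). MRPL13 read 50 and 69 (1.38-fold lower), below the floor on the CD2-positive array. These 3 genes lay farthest from 0 on the lower side.

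MRPL47, which corresponds to a bacterial protein at the exit of the peptide tunnel, read 115 and 153 (1.33-fold lower). MRPL18 read 148 and 192, MRPL21 64 and 83, and MRPL22 56 and 72, each between 1.29-fold and 1.30-fold lower. MRPL34 followed at 53 and 67 and MRPL40 at 61 and 77, both 1.26-fold lower. MRPL40 is one of the mitochondria-specific proteins, while the others named so far belong to the set shared with bacteria.

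Smaller negative differences, from -0.26 to -0.11, were measured for MRPL17, MRPL36, MRPL3, MRPL57, MRPL32, MRPL20, MRPL33 and MRPL15. MRPL3, a core protein close to the site of peptide bond formation, read 239 and 280. Between -0.089 and -0.044 lay MRPL49, MRPL42, MRPL50, MRPL27, MRPL51 and MRPL30, so these 6 lay within the probe set spread of 0. MRPL27, whose bacterial counterpart also sits near the peptidyl transferase centre, read 102 and 106. MRPL30 depended on the probe set, with -0.044 for the one used and -0.35 for another. The latter read 29 and 37, past a mean log2 of 5 but below 64 on both arrays.

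Only 4 large-subunit genes above the floor were higher. MRPL23 was the farthest from 0 at 85 on the CD2-positive and 66 on the CD2-negative array (1.29-fold higher). MRPL41 read 185 and 166, with 0.16 and 0.26 for its 2 probe sets past a mean log2 of 5. MRPL14 read 95 and 90, and MRPL10 73 and 71. Except for MRPL23, the differences of these genes were at most 0.16 and close to the probe set spread or below it.

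In the small subunit 11 genes were above the floor. MRPS12, which lies at the decoding centre of the ribosome, read 48 on the CD2-positive and 68 on the CD2-negative array (1.42-fold lower), below the floor on the first. MRPS23, a mitochondria-specific protein, read 77 and 104 (1.35-fold lower), and MRPS18C 107 and 142 (1.33-fold lower). MRPS21 read 173 and 219, MRPS14 66 and 83, and MRPS22 87 and 107. All 4 probe sets of MRPS22 past a mean log2 of 5 were negative, from -0.30 to -0.18.

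MRPS15 read 142 and 170, with its second probe set past that level also negative (-0.20), and MRPS35 was nearly even at 74 and 75. Higher in the CD2-positive subclone were MRPS6 at 67 and 59 (1.14-fold), MRPS30 at 88 and 81 (1.09-fold) and MRPS18B at 77 and 73 (1.05-fold). MRPS30 is named for the small subunit but has been placed in the large subunit in structures of the ribosome, as has MRPS18A. Counting both in the large subunit left its median at -0.20 and gave -0.31 for the small subunit. MRPS18A is below the floor, so among the compared genes only MRPS30 moved.

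The MRPS18 genes encode 3 related proteins that all resemble one bacterial protein, and they differed from each other. MRPS18C was lower (-0.41), MRPS18B slightly higher (0.077), and MRPS18A equal at 26 on both arrays, with 0.11 for its other probe set. MRPS18B likewise had 0 for its second probe set. The other probe sets of MRPS18C read 2 or 3 on either array, no higher than the Bacillus controls, so its value rests on 1 probe set.

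**Figure D3:**
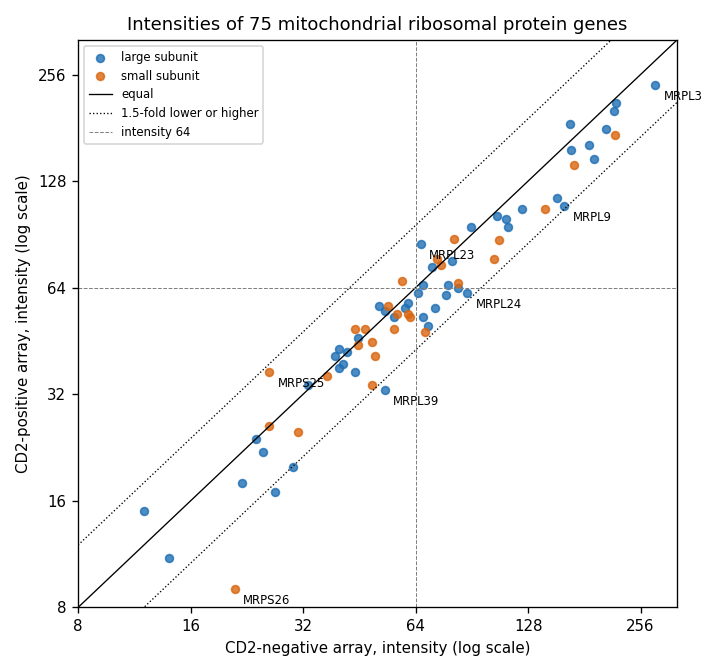
Intensity of the 75 member genes on the CD2-positive array (vertical axis) against the CD2-negative array (horizontal axis), both on log scales, with dotted lines at a 1.5-fold difference and dashed lines at an intensity of 64. Most points lie just below the line of equal values, and MRPS26 lies farthest from it at 9 and 21.

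The other 37 members stayed below 64 on both arrays: 23 were lower, 11 higher and 3 equal, with a median of -0.074. In the large subunit these were MRPL39, MRPL55, MRPL19, MRPL2, MRPL58, MRPL45, MRPL11, MRPL16, MRPL4, MRPL37, MRPL35 and MRPL1 on the lower side, MRPL52 and MRPL28 at equal values, and MRPL44, MRPL46, MRPL48, MRPL43, MRPL38, MRPL54 and MRPL12 on the higher side. In the small subunit MRPS26, MRPS17, MRPS9, MRPS16, MRPS31, MRPS5, MRPS11, MRPS33, MRPS7, MRPS34 and MRPS28 were lower, MRPS18A was equal, and MRPS10, MRPS27, MRPS2 and MRPS25 were higher. At these levels the rounding of the deposited values alone matters.

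MRPS26 had the largest difference of all members at 9 and 21, a 2.33-fold lower value. Rounding to whole numbers allows a log2 difference from -1.34 to -1.11 there, and its other probe set read 4 and 3, no higher than the Bacillus controls. MRPL39 read 33 and 53 (1.61-fold lower), MRPL55 17 and 27 (1.59-fold lower) and MRPL19 20 and 30 (1.5-fold lower). MRPS25 was the most positive member at 37 and 26 (1.42-fold higher), and its 3 probe sets were all positive, 1 of them at only 3 and 2. MRPL12, the stalk protein that in bacteria recruits translation factors, read 15 and 12, where rounding allows 0.21 to 0.43, and its other probe set had the opposite sign at 8 and 9. MRPL58, a peptidyl-tRNA hydrolase that releases stalled ribosomes, read 18 and 22.

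More than 1 probe set with a mean log2 of at least 5 was available for 11 members. All such probe sets were negative in 5 of them (MRPL9, MRPL4, MRPL30, MRPS22 and MRPS15) and all positive in 1, MRPL41. In 4 members, MRPL42, MRPL43, MRPS31 and MRPS10, the sign depended on the probe set, and in MRPS18B 1 probe set was at 0. For MRPS31 the values were -0.23 and 0.18. The remaining members rest on 1 probe set at this level or have none.

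Proteins with a bacterial counterpart and proteins found only in mitochondria were set beside each other, a division that follows ribosome nomenclature and leaves 4 members unclassed. Among members with a mean log2 of at least 5, 32 of 38 with a bacterial counterpart were lower (median -0.20), and 15 of 25 mitochondria-specific ones were lower (median -0.047). Of all genes at this floor 53.5% were lower, with a median of -0.035, and at this floor the mitochondria-specific genes lay near that. The large subunit showed 21 of 24 and 9 of 17 lower, with medians of -0.20 and -0.047. In the small subunit 11 of 14 and 6 of 8 were lower, with medians of -0.23 and -0.081. Both classes spanned 0, from -0.55 to 0.36 and from -0.68 to 0.16. Without members on chromosomes 1 and 20 the medians were -0.17 over 32 and -0.043 over 24 members. Centred on the hybridisation controls they were -0.018 and 0.14, so the second changed sign. The contrast in the shares of lower genes depended on the floor. Above the floor used for comparing genes, 22 of 26 members with a bacterial counterpart (84.6%) were lower. Of the mitochondria-specific ones 9 of 11 (81.8%) were lower there, against 55.7% of all genes above that floor. The medians still differed, at -0.26 and -0.074, against -0.045 for all genes. No test of the difference between the classes was made.

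The members lie on 21 chromosomes, and all 8 on chromosome 1 were lower, with a median of -0.34. For each member the median difference of up to 40 neighbouring genes above the floor, 20 on either side and no member among them, was taken from the order of genes in RefSeq. The most negative neighbour medians on chromosome 1 were those of 5 members: MRPL55 (neighbour median -0.40), MRPS14 (-0.31), MRPL9 (-0.27), MRPL24 (-0.26) and MRPS21 (-0.25). Their own differences were -0.67, -0.33, -0.55, -0.51 and -0.34. The other 3, MRPS15, MRPL20 and MRPL37, had neighbour medians of -0.011, 0.027 and -0.067 and differences of -0.26, -0.20 and -0.074. MRPS26, the only member on chromosome 20, had a neighbour median of -0.33. For the remaining 66 members neighbour medians lay between -0.15 and 0.11. Leaving out chromosomes 1 and 20 after seeing these values, 25 of 32 members above the floor were lower with a median of -0.18. The share of all genes without these chromosomes was not taken.

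**Figure D4:**
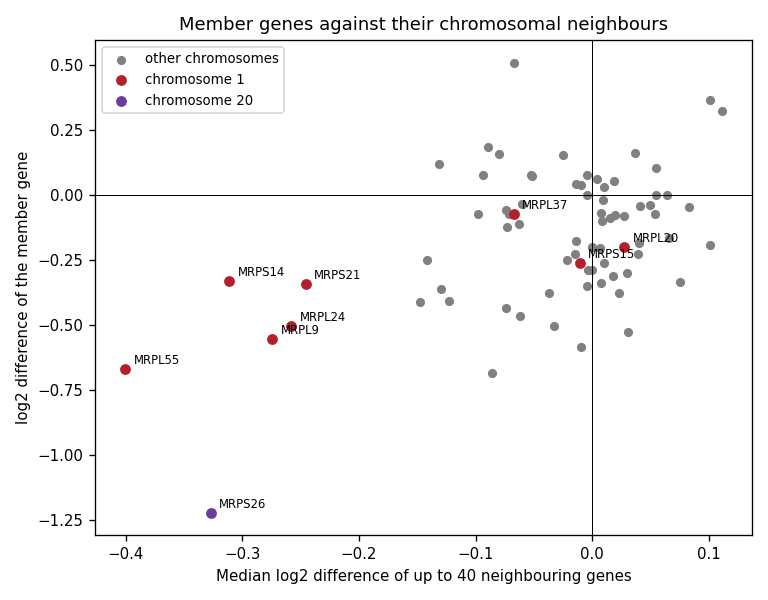
Log2 difference of each of the 75 member genes (vertical axis) against the median log2 difference of up to 40 neighbouring genes on its chromosome (horizontal axis), both CD2-positive minus CD2-negative. Red points are the 8 members on chromosome 1 and the purple point is MRPS26 on chromosome 20; 6 of these 9 lie at neighbour medians from -0.40 to -0.25.

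Ribosomal proteins that carry other names gave both signs. DAP3, a GTP-binding protein of the small subunit, read 128 on the CD2-positive and 195 on the CD2-negative array (1.52-fold lower); it is a chromosome 1 gene, and its neighbours had a median of -0.26. PTCD3, also of the small subunit, read 69 and 60 (1.15-fold higher), and CHCHD1 read 89 and 85. GADD45GIP1 read 22 on both arrays.

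Genes that serve the mitochondrial ribosome were counted at the same floor, where 55.7% of all genes were lower, in lists drawn up from textbook roles. Each list left few genes, and its count is given as a description. A gene that reached the floor on the CD2-negative array alone could only count as lower. Among these were NOA1 (54 and 64), MTRF1L (58 and 67), RARS2 (56 and 67), PNPT1 (62 and 78) and TFB2M (49 and 99). The lists were not recounted with both arrays above the floor. Of the assembly factors 26 were measured and 6 were above the floor: 4 were lower and 2 higher, with a median of -0.24. MALSU1, which keeps the subunits apart during assembly, read 77 and 105, and MRM2, a methyltransferase of ribosomal RNA, 64 and 86. FASTKD2 (80 and 68) and METTL17 (176 and 152) were the higher ones. Of the translation factors and their partners 4 of 5 were lower (median -0.077). LRPPRC, an RNA-binding protein that stabilises mitochondrial messenger RNA, read 108 and 140. OXA1L, which inserts new proteins into the inner membrane, was higher at 280 and 262, and TUFM, the elongation factor, was nearly even at 90 and 92.

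In the list of mitochondrial aminoacyl-tRNA synthetases 20 genes were measured and 6 were above the floor. All 6 were lower, with a median of -0.22 and a range from -0.40 to -0.027. Below the floor the list held lower, equal and higher genes. IARS2 read 91 and 120, and its neighbours on chromosome 1 had a median of -0.33. KARS1 (278 and 337) and GARS1 (370 and 421) also charge tRNA in the cytosol. In mitochondrial transcription and RNA processing 6 of 7 genes were lower and MTPAP was equal at 105, with a median of -0.13. TFB2M, the transcription factor that opens mitochondrial promoters, was the only gene of these lists past 2-fold, at 49 and 99 (2.02-fold lower), and it too lies on chromosome 1, with a neighbour median of -0.36.

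Beside the mitochondrial ribosome, 42 of 50 proteins of the cytosolic ribosome above the floor were lower, against 55.7% of all genes, with a median of -0.12 and a range from -0.29 to 0.13. None of them was 1.25-fold lower or higher, while 14 of the 38 mitochondrial members above the floor were at least 1.25-fold lower and 1 was at least 1.25-fold higher. Of all genes above the floor 16.3% were at least 1.25-fold lower and 12% at least 1.25-fold higher. Of the 14 lower members, 6 were among the 8 that reached the floor on 1 array only, and 8 were among the 30 that reached it on both. Of all 3022 genes that reached it on both arrays, 399 were at least 1.25-fold lower. The lists differ in signal, with intensities of the cytosolic genes from 434 to 4135, and no test of a difference between them was made.

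**Figure D5:**
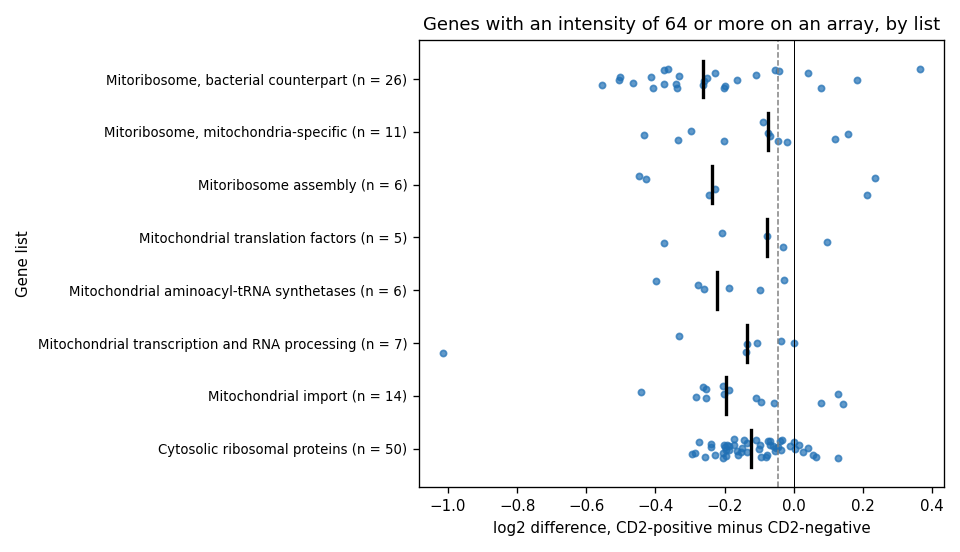
Log2 difference (horizontal axis, CD2-positive minus CD2-negative) of genes that reached an intensity of 64 on an array, by gene list (vertical axis, with the number of genes). Points are genes, spread vertically for visibility, black bars are medians, and the dashed line is the median of -0.045 over all 3564 genes; the 6 aminoacyl-tRNA synthetases all lie left of 0.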

How the data were processed

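The deposited values are probe set intensity values in whole numbers on a linear scale, 1 column per array. Per the submitters' processing notes, the authors used Affymetrix Expression Console 1.1 and RMA to make them. That they are linear and rounded was read from the numbers themselves, and which background correction RMA used is not stated. The number of arrays limits the precision.

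Values were converted to log2 in Python 3.11.15 with pandas 2.3.3. The 41097 probe sets with 1 symbol in the platform annotation were used, and a gene's value came from whichever of its probe sets had the highest mean log2. Entrez identifiers linked genes to RefSeq (GRCh38.p14) for current symbols, neighbours and promoters. Genes were compared where the higher array reached 64, and counts used a 1.5-fold rule. No test was possible with 1 array per group. The script was checked on simulated data.

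All members are named. List genes named were those above the floor and past 1.5-fold, and some of the 2 most positive and 2 most negative above it. A few were added for their role or because they reached the floor on the CD2-negative array alone. List genes past 1.5-fold but below the floor are not named. Members and lists were chosen with earlier results of these data known. Alternatives were other floors, probe set rules, scalings (a lowess fit with a span of 0.3 among them), subunit assignments, chromosomes and fold rules.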

Additional observations from a re-analysis of the deposited data

Results flagged for a closer look

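Of 6 probe sets that name a mitochondrial ribosomal gene, a pseudogene or an antisense gene but fell outside the rule for members, 5 gave signal above the Bacillus controls, which read at most 4. The exception was that of the pseudogene MRPL45P2, at 1 on both arrays. The probe set shared by MRPS24 and its readthrough URGCP-MRPS24 read 134 on the CD2-positive and 169 on the CD2-negative array, and the probe set shared by MRPL53 and CCDC142 read 104 and 131. Their log2 differences were both -0.33, within the range of the members. A probe set shared by MRPL51 and SPTLC1 read 38 and 42. The probe set of the pseudogene MRPS31P5 and THSD1 read 13 and 19, and that of the antisense gene MRPL20-AS1 read 20 and 19. Signal of shared probe sets cannot be assigned to 1 of their genes.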

How the results depend on the processing

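No paired analysis was possible because each group held 1 array. The median of all members above the floor stayed negative under all 14 alternatives run, from -0.23 to -0.033, and the large-subunit median did so from -0.25 to -0.019. The highest values of these 2 medians came from centring on the hybridisation controls (-0.033 for all members, -0.019 for the large subunit), which gave -0.12 for the small subunit. The small-subunit median, -0.30 as reported, also differed with a floor of log2 5 (-0.15), the mean of all probe sets (-0.019), leaving out chromosomes 1 and 20 (-0.16) and plain identifiers, where it turned to 0.077. The difference between the subunit medians turned positive with the mean of all probe sets (0.23), plain identifiers (0.31) and without chromosomes 1 and 20 (0.023). The centrings cannot alter this difference, and the alternatives on shared sign and on RefSeq symbols left 38 members and the same values. Moving MRPS30 and MRPS18A to the large subunit cannot alter the median of all members. The 14 alternatives are therefore not all separate checks. No member above the floor was 1.5-fold different. With a floor of log2 5 there was 1 lower member of 65, and the share of all genes at that floor was not taken. With no floor 4 of 75 members were lower and 0 higher. Without a floor 1391 of all 19775 genes were at least 1.5-fold lower and 1264 at least 1.5-fold higher. The 1.25-fold rule with a floor on the mean log2 of 5 gave 16 lower and 1 higher. That rule, that floor and the choice of chromosomes were made after seeing the data. Low signal limits the 37 members below the floor, where whole-number rounding is coarse against the signal.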

Other observations

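Genes of mitochondrial protein import, the route by which all ribosomal proteins reach the organelle, were lower in 11 of 14 cases above the floor, with a median of -0.19, where 55.7% of all genes were lower with a median of -0.045. TIMM21 read 81 on the CD2-positive and 110 on the CD2-negative array, and its neighbours on chromosome 18 had a median of -0.35. TIMM17A read 216 and 263, and its chromosome 1 neighbours had a median of -0.33. TIMM8A was higher at 74 and 67, while its neighbours on chromosome X had a median of -0.45, and TIMM8B read 129 and 118. Of 11 factors known to regulate nuclear genes for mitochondrial proteins, YY1 (362 and 393) and MYC (72 and 75) were above the floor. GABPA read 18 and 24, GABPB1 35 and 31, and NRF1 9 and 8.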
